A study of Mus musculus with 12 samples.

Results

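Abundant noncoding transcripts that belong to protein-coding genes were examined in mouse liver. A transcript entered the set when the deposited lncRNA table gave it an Ensembl transcript identifier, when its gene also stood in the deposited gene table, and when its mean level over the 12 libraries was 50 TPM or more (TPM is a level per unit of transcript length that sums to 1000000 in each library). The rule was met by 60 transcripts from 53 genes, out of 52170 rows of the lncRNA table and 21037 rows with an Ensembl identifier and a listed gene. The members were thus chosen on their mean level, which is a description here and not a result. The members nearest the threshold from above were transcripts of Gcdh, Gls2 and Cyp2c50 at 50.7, 50.5 and 50.4 TPM, and the rows nearest from below belonged to Cp, Ywhae and Rpl15 at 49.6, 49.6 and 48.9 TPM. All 53 genes are protein-coding in RefSeq (GRCm38.p6). Livers of C57BL/6 mice formed 3 groups of 4 libraries each. The groups were fed a normal fat diet (NFD), a high fat diet (HFD), or the high fat diet with N-acetylcysteine, an antioxidant and glutathione precursor, at 2 g per L in the drinking water (NAC_HFD). Feeding lasted 14 weeks, and the age label of every library reads 8 weeks, so the age at sampling cannot be settled from the labels. No label says that the 4 libraries of a group came from separate animals, so p-values measure only the spread between these libraries.

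A coding gene commonly gives rise to transcripts that are not translated into its protein. Some keep an intron, some lack a complete reading frame, and some carry a premature stop codon and are degraded by nonsense-mediated decay. Such transcripts can be classed as noncoding, though not all are, while they overlap the exons of the mRNA. Reads from shared exons are divided between these transcripts and the mRNA by an estimate rather than by direct observation. In liver the genes with the highest expression encode plasma proteins and metabolic enzymes. The class and the length of each transcript were not given in the sources used here.

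All 5 hepatocyte markers were high in every library, with albumin at 22101 to 38257 TPM and the nuclear receptor Hnf4a at 196 to 298 TPM. The lncRNA rows made up 335619 to 395100 TPM of a library, and a single lncRNA took 23.5% to 29.6% of all TPM. NFD library 4 had the highest lncRNA total and the highest mitochondrial share of the gene table (12.6%, lowest library 8.91%). Summed Kupffer cell markers were 64.6 to 123 TPM in NFD, 86.6 to 224 in HFD and 59.4 to 119 in NAC_HFD. The pancreas list was separate between NFD (9.79 to 17.0 TPM) and the 2 high fat groups (19.0 to 27.5 and 20.4 to 31.5 TPM), almost all of it Cela1, while Prss2 and Cpa1 stood at or near 0. Its part in the results was not tested. In whole liver, fewer cells of a type and less RNA per cell cannot be told apart.

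Transcripts of the plasma proteins and of metabolic enzymes led the set. The 60 transcripts summed to 10320 ± 382 TPM in NFD, 10706 ± 352 in HFD and 10727 ± 637 in NAC_HFD (SD, n = 4 each), which was 1.06% of a library on average and 2.98% of the lncRNA rows. The median member had a mean level of 89.6 TPM, and the first 3 members by level held 39.4% of the members' sum. ENSMUST00000190051 of transferrin (Trf, chr9:103208876-103230286, build GRCm38 here and below), the iron carrier of plasma, had the highest mean level, 2246 TPM. ENSMUST00000138921 of urate oxidase (Uox, chr3:146597149-146631483), which degrades uric acid, followed at 1240.2 TPM. ENSMUST00000236211 of the glutathione transferase Gstp1 (chr19:4035411-4037912) had 688 TPM, and ENSMUST00000219435 of the mitochondrial protein gene Chchd10 (chr10:75933130-75937750) had 469 TPM. ENSMUST00000238021 of the class I histocompatibility gene H2-K1 (chr17:33996012-34000619) had a mean of 436 TPM. The next 5 by level were transcripts of the major urinary protein gene Mup14 (359.99 TPM), of Ndrg2 (292 TPM), of the membrane protein gene Itm2b (212 TPM), of the first enzyme of heme synthesis, Alas1 (206 TPM), and of the chaperone calreticulin, Calr (202 TPM).

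By function, 11 transcripts came from 10 plasma protein genes and 10 transcripts from 10 genes of xenobiotic and steroid enzymes. The highest by level were those of Trf, Mup14 and Itih4 (133 TPM) among the plasma proteins. Among the enzymes they were those of Gstp1, Ces1d (199.8 TPM) and Cyp2e1 (123 TPM). Amino acid and urate metabolism gave 4 transcripts (Uox, Bhmt, Gcdh and Gls2), translation 4 (Rps16 with 2, Rps2 and Rps20), carbohydrate metabolism 3 (Pck1 with 2, and Khk) and lipid metabolism 3 (Acadm, Acsl1 and Eci2). Chaperones gave 2 (Calr and Hsp90aa1), the respiratory chain 2 (Atp5j and Cox6b1) and RNA helicases of splicing 1 (Ddx5). The other 20 transcripts came from 16 genes outside these lists. The lists of apolipoproteins and of redox enzymes held no member. Several of the genes have close paralogs or belong to large families (Mup10, Mup14, the Cyp2c, Cyp2d and Ces genes, Gstp1, H2-K1, C4b, Mug1 and the ribosomal protein genes), so the split of reads among copies makes their levels uncertain.

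The transcripts differed widely in how much of their gene they carried. The share of a transcript is its TPM divided by the TPM of the whole gene in the same library, which equals the sum of all its mRNA and noncoding rows. The median mean share was 24.8%, with 11 members above 50%, 34 between 10% and 50% and 15 below 10%. The highest mean shares belonged to ENSMUST00000148302 of Mup10 (89.2%), ENSMUST00000103009 of the ribosomal protein gene Rps20 (85.8%) and ENSMUST00000224220 of Prelid1 (84.6%), which moves phospholipid between mitochondrial membranes. Next came ENSMUST00000146103 of the ATP synthase subunit gene Atp5j (77.8%), the Chchd10 transcript (71.8%) and ENSMUST00000213383 of xylulokinase, Xylb (69.8%). The lowest mean shares were those of ENSMUST00000112503 of Trf (1.33%), ENSMUST00000210403 of Cyp2e1 (1.6003%), ENSMUST00000232377 of fetuin-A, Ahsg (1.67%), ENSMUST00000204210 of Mug1 (3.29%), ENSMUST00000133033 of Aldh2 (3.77%) and ENSMUST00000195575 of Car3 (4.26%). These 6 rows passed 50 TPM in genes whose mRNA is among the most abundant of the liver. With the threshold at 50 TPM, a low share could enter the set only from an abundant gene. Mean level is plotted against mean share, and the relation between them was not tested.

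**Figure D1:**
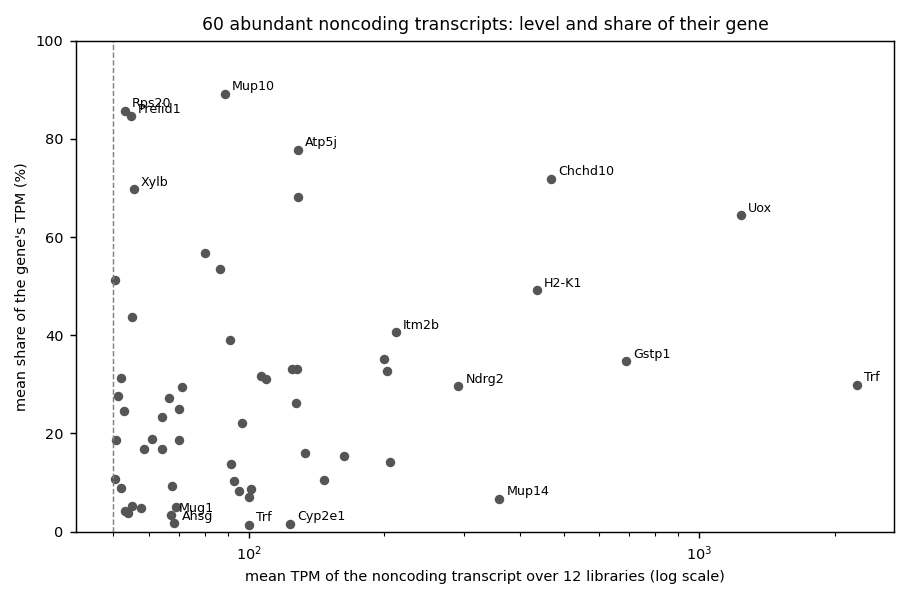
Mean TPM over 12 libraries (horizontal, log axis) against the mean share of the gene's TPM in percent (vertical), 1 point per transcript. The Trf transcript at 2246 TPM held 29.9% of its gene, while the Mup10 transcript at 88.4 TPM held 89.2%.

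In 12 genes the members together held more than the other rows of the gene combined. Over mean TPM, the 2 Rps16 transcripts held 95.7% of this 40S ribosomal protein gene and its mRNA rows 4.15%. For Mup10 the division was 90.2% against 8.59%, for Rps20 86.0% against 9.29%, for Prelid1 84.5% against 15.5% and for Atp5j 77.8% against 17.1%. The mRNA rows of Chchd10, Xylb and Uox held 28.0%, 30.2% and 34.4%. Ghitm, a protein of the inner mitochondrial membrane, and cathepsin B (Ctsb), a lysosomal protease, stood nearer to an even division, with members at 56.9% and 53.6%. The liver glutaminase gene Gls2 had 51.0% on its member, and Abcc2, which exports conjugates into bile, had 50.4% on 2 members. In all, 14 of the 60 transcripts were the most abundant row of their gene, coding rows included. The mRNA rows summed to 5.78 to 10.3 TPM for Rps16 and 4.75 to 6.56 TPM for Rps20, beside a mean of 334 TPM for Rps2. Reads from shared exons were divided among rows by an estimate, whose part in these divisions was not tested.

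**Figure D2:**
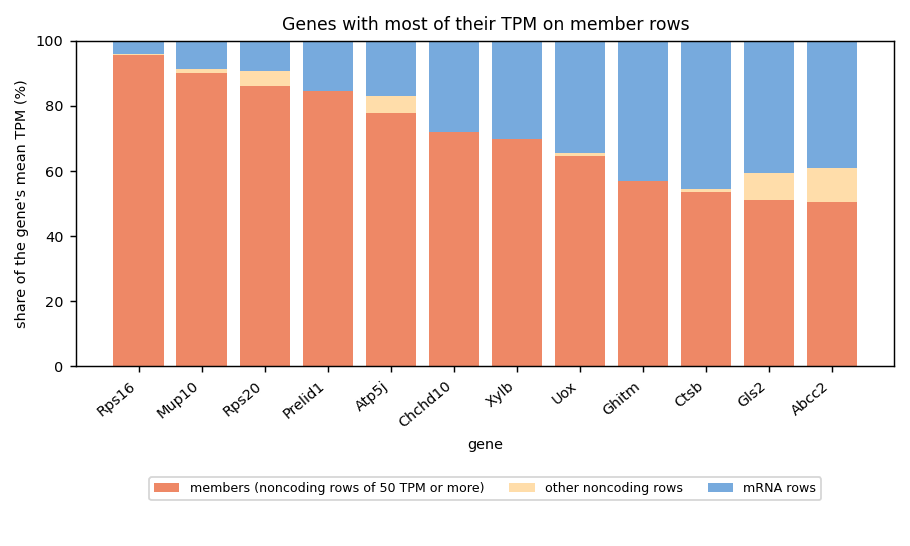
Division of each gene's mean TPM (percent, vertical) among members, other noncoding rows and mRNA rows, for the 12 genes with more than 50% on members. Members range from 95.7% in Rps16 to 50.4% in Abcc2. The division of reads from shared exons among rows is an estimate.

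Most genes gave 1 member (48 of 53), and 5 gave 2 or more. Alas1 gave 4, with mean levels of 206, 147, 99.95 and 68.9 TPM. The first of them, ENSMUST00000123601, stood at 309, 137, 82.7 and 294 TPM in NFD, 214, 174, 186 and 136 in HFD and 238, 207, 274 and 217 in NAC_HFD. Its share of Alas1 was 14.8, 13.01, 16.96 and 16.8% in NFD and 13.4, 13.4, 13.3 and 13.4% in HFD, so that the level of this transcript differed several-fold among NFD libraries and its share much less. The other 3 had wider NFD shares: 6.14 to 19.8% for ENSMUST00000219340, 5.23 to 11.3% for ENSMUST00000214249 and 3.197 to 10.3% for ENSMUST00000123115. Trf, Rps16, Abcc2 and Pck1, the gluconeogenic enzyme, gave 2 each. The 2 Trf members differed most, at 2246 and 100.04 TPM. The 2 Rps16 members stood at 129 and 51.1 TPM, those of Abcc2 at 128 and 64.2 TPM, and those of Pck1 at 163 and 55.05 TPM. Members of 1 gene are parts of the same gene total and are not independent of each other.

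The noncoding transcripts varied more between libraries of 1 group than their whole genes did. The median coefficient of variation (SD over mean in each group, averaged over the 3 groups) was 24.3% for the transcripts and 11.8% for their genes, and it was larger for the transcript in 55 of 60 cases. Each gene total contains its transcript, and a part can vary more than the sum. The spread of single mRNA rows was not computed, so the comparison cannot show whether noncoding rows differ from coding rows in spread. The Prelid1 transcript varied least (6.36%) and ENSMUST00000173838 of the carboxylesterase gene Ces3b most (78.7%). Cox6b1, a subunit of cytochrome oxidase, had the only member listed at 0 in a library: ENSMUST00000207851 stood at 47.1, 77.7, 57.4 and 146 TPM in NFD, 43.5, 0, 65.9 and 29.9 in HFD and 85.3, 7.60, 106 and 35.5 in NAC_HFD, while the rest of the gene stayed between 210.3 and 332 TPM. In Mup14 the order was turned: the transcript stayed within 201 to 611 TPM, and the rest of the gene ranged from 1915 to 10228 TPM. Since TPM keeps no read depth, how much of this spread is counting error cannot be stated.

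**Figure D3:**
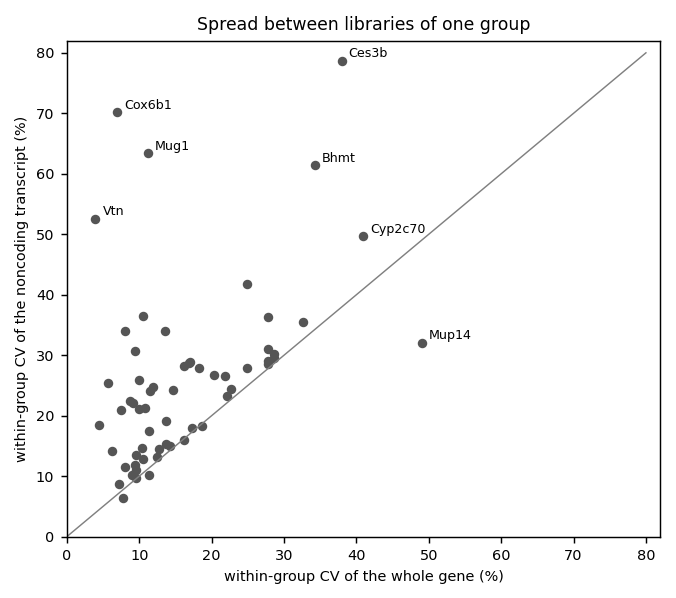
Within-group coefficient of variation in percent of each noncoding transcript (vertical) against that of its whole gene (horizontal), with the line of equality. Points above the line, 55 of 60, are transcripts that varied more than their gene.

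Promoters were examined for the 39 of 53 member genes with a RefSeq promoter entry (GRCm38.p6). The 150 bases before each gene start were searched on both strands for 5 motifs, chosen with the results known. A gene can have several listed starts (49 promoters for the 39 genes), and a gene was counted when any of its promoters held the motif. TATAAA (the TATA box) stood before 8 of the 39 genes, beside 8.89% of all 27025 genes of the promoter table and 7.57% of its 32851 promoters. CCAAT stood before 12 (27.7% of all genes and 24.5% of promoters), CCGGAAG (a GABP/ETS motif) before 6 (6.33% and 5.52%), CAAAGTCCA (an HNF4 motif) before 1 (0.322% and 0.271%) and the HNF1 motif before 0 (0.0111% and 0.0091%). The promoters printed come from 4 genes with large differences between groups in the comparisons that follow, and each printed window holds a match. The genes are Cyp2c70, which makes the muricholic bile acids of mice, Bhmt, which remethylates homocysteine with betaine, Ndrg2, of the N-myc downstream-regulated family, and Rps2, of the 40S ribosomal subunit. Each runs 5′ to 3′ toward the gene start, and capitals mark motif matches on either strand.
Cyp2c70 chr19:40187287-40187436, minus strand: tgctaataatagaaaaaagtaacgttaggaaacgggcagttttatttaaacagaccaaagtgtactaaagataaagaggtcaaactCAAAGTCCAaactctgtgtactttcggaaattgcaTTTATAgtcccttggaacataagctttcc
Bhmt chr13:93637759-93637908, minus strand: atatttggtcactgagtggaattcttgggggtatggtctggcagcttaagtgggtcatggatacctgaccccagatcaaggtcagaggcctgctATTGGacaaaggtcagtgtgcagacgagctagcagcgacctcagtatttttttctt
Ndrg2 chr14:51914005-51914154, minus strand: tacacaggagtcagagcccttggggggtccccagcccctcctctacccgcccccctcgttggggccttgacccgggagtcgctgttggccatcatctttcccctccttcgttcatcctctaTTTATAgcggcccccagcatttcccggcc
Rps2 chr17:24719913-24720062, plus strand: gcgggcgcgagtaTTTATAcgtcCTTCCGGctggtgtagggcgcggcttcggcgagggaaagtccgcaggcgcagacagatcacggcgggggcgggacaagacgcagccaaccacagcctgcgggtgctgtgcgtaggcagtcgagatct
In Cyp2c70 the capitals are the HNF4 motif, 64 bases before the start, and the TATA box read on the opposite strand as TTTATA, 29 bases before it. In Ndrg2 TTTATA also stands 29 bases before the start. In Bhmt the capitals are CCAAT on the opposite strand, 56 bases before the start. In Rps2, at an inner start, they are TTTATA and CCGGAAG on the opposite strand, 137 and 127 bases before the start. Windows without a match were read too and are not printed: those of Nr1i3, Uox, Rps16 and Gstp1, the outer window of Acsl1 and the inner windows of Ndrg2. The inner window of Acsl1 (chr8:46490816-46490965) held a match and is not printed either: CCAAT on the opposite strand, 49 bases before the start. The noncoding transcript's own start was not given in the sources used here, and a match is a description of these letters only.

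The high fat diet against the normal diet asks what the diet alone does to these transcripts. In this comparison transcripts of complement C4b, carbonic anhydrase III (Car3) and Bhmt had higher levels and that of the carboxylesterase Ces3a a lower level in HFD, but no member passed the test. With limma over all 25205 tested lncRNA rows, 0 of 60 members and 7 rows in all (0.0278%) had an adjusted p under 0.05. At an unadjusted p under 0.05 there were 18 members, 12 higher (3.21% of all rows) and 6 lower in HFD (4.8%), against 8.02% of all rows in either direction and 15 of the 102 other lncRNA rows with 50 TPM or more. The groups did not overlap in 14 of 60 members, against 4.78% of all rows and 14 of those 102. At an unadjusted p the members numbered 8 without trend and robust in limma, where the count over all rows was 1966 in place of 2021. The direction was toward HFD in 37 of 60 (41.5% of all rows), with a median log2 difference of 0.17, beside -0.09 over all tested rows.

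ENSMUST00000173669 of C4b (chr17:34728139-34743902), a component of the complement cascade made by hepatocytes, stood at 117, 117, 109.7 and 94.7 TPM in NFD and 194, 177, 136 and 195 TPM in HFD. Every HFD library exceeded every NFD library, and the third of the HFD libraries was the nearest to them. The difference was 0.67 on the log2 scale (SE 0.14, adjusted p = 0.199). ENSMUST00000195575 of Car3 (chr3:14863538-14872381), an enzyme of muscle, fat and liver that hydrates carbon dioxide, stood at 23.6, 51.3, 40.6 and 32.3 TPM in NFD and 72.6, 107, 73.97 and 65.4 TPM in HFD. Here too the groups did not overlap, and the difference was 1.14 on the log2 scale (SE 0.28, adjusted p = 0.293). Car3 also marks adipose tissue: the summed levels of the other 3 markers of that list were 0.08 to 0.65 TPM in NFD, 4.87 to 32.7 in HFD and 0.14 to 1.75 in NAC_HFD, nearly all Cfd, with Adipoq and Plin1 at 0.27 TPM or less in every library.

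ENSMUST00000124193 of Bhmt (chr13:93616891-93637758) had the largest difference of the 4. It stood at 10.3, 53.6, 7.30 and 23.6 TPM in NFD, 126, 115, 124 and 79.2 in HFD and 113, 22.5, 109 and 24.3 in NAC_HFD. The NFD libraries were all below the HFD libraries, and the NAC_HFD libraries split, with 2 at the HFD level and 2 within the NFD range. The HFD difference was 2.63 on the log2 scale (SE 0.66, adjusted p = 0.318). ENSMUST00000212329 of Ces3a (chr8:105048576-105061928), an esterase of the endoplasmic reticulum, stood at 134, 138, 169 and 176 TPM in NFD and 100.3, 87.2, 86.7 and 63.6 in HFD. Every HFD library lay below every NFD library, and the difference was -0.88 on the log2 scale (SE 0.22, adjusted p = 0.321). By list, the 11 plasma protein transcripts had 8 toward HFD with a median of 0.35, and the 10 transcripts of xenobiotic and steroid enzymes had 4 toward HFD with a median of -0.45.

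N-acetylcysteine on the high fat diet, against that diet alone, asks what the supplement adds. Transcripts of C4b, of the xenobiotic receptor Nr1i3 and of the cytochrome Cyp2d26 had lower levels in NAC_HFD, and those of the fatty acid ligase Acsl1 and of Cyp2c70 higher levels, again with no member past the test. In the limma fit 0 of 60 members and 8 of 25205 rows (0.0317%) had an adjusted p under 0.05. At an unadjusted p under 0.05 there were 18 members, 8 higher (2.64% of all rows) and 10 lower in NAC_HFD (7.49%), against 10.1% of all rows in either direction and 21 of the 102 other abundant rows. Groups were without overlap in 14 members, against 5.56% of all rows and 9 of the 102. The median log2 difference was -0.03, beside -0.11 over all rows, with 28 of 60 toward NAC_HFD (40.8% of all rows). The sign of this median was not stable: with median-of-ratios scaling it was 0.07 with 32 of 60 toward NAC_HFD, beside -0.03 over all rows, and it was 0.04, 0.0016 and 0.02 without HFD library 3, NAC_HFD library 1 or NAC_HFD library 4.

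The C4b transcript stood at 102, 94.7, 89.8 and 97.5 TPM in NAC_HFD, below every HFD library and within or below the NFD range. Its difference from HFD was -0.86 on the log2 scale (SE 0.14, adjusted p = 0.0761), the smallest p among members here. Because both comparisons use the same HFD libraries, the lower value here and the higher value in HFD against NFD are not separate observations. ENSMUST00000152865 of Nr1i3 (chr1:171213934-171218845), the constitutive androstane receptor that induces drug-metabolizing enzymes, stood at 45.3, 62.02, 42.9 and 49.6 TPM in NFD, 75.8, 81.3, 86.7 and 58.3 in HFD and 36.4, 17.7, 51.3 and 17.9 in NAC_HFD. All NAC_HFD libraries were below all HFD libraries, although the NAC_HFD libraries were spread from 17.7 to 51.3 TPM. The difference was -1.43 on the log2 scale (SE 0.31, adjusted p = 0.183).

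ENSMUST00000230125 of Cyp2d26 (chr15:82790107-82794452) stood at 42.5, 71.4, 42.6 and 57.7 TPM in NFD, 61.3, 72.04, 93.4 and 55.3 in HFD and 38.9, 31.1, 38.1 and 19.7 in NAC_HFD. All 4 NAC_HFD libraries lay below the libraries of the other 2 groups, and the difference from HFD was -1.16 on the log2 scale (SE 0.25, adjusted p = 0.183). ENSMUST00000211289 of Acsl1 (chr8:46471037-46536051), which activates long-chain fatty acids, stood at 78.6, 39.3, 48.9 and 74.04 TPM in NFD, 83.5, 68.6, 54.7 and 59.5 in HFD and 116, 224, 104 and 159 in NAC_HFD. Here every NAC_HFD library lay above every library of the other groups, and the difference from HFD was 1.13 on the log2 scale (SE 0.28, adjusted p = 0.207). ENSMUST00000164351 of Cyp2c70 (chr19:40153361-40187286) stood at 131, 71.97, 31.7 and 71.5 TPM in NFD, 57.4, 38.4, 49.6 and 30.9 in HFD and 248, 392, 91.2 and 98.4 in NAC_HFD. Its NAC_HFD libraries were all above the HFD libraries but overlapped NFD, and the difference from HFD was 2.00 on the log2 scale (SE 0.50, adjusted p = 0.215). The 11 plasma protein transcripts had 2 toward NAC_HFD with a median of -0.60, and the 3 lipid metabolism transcripts had all 3 toward NAC_HFD with a median of 0.53.

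The supplemented high fat diet against the normal diet joins both changes. Transcripts of Rps2, Ndrg2 and Acsl1 had higher levels and that of Ces3a a lower level in NAC_HFD. The limma fit called 0 of 60 members and 25 of 25205 rows (0.0992%). At an unadjusted p under 0.05 there were 24 members, 15 higher (2.75% of all rows) and 9 lower in NAC_HFD (10.5%), against 13.3% of all rows in either direction and 36 of the 102 other abundant rows. Without overlap were 10 members, against 6.92% of all rows and 11 of the 102. The median log2 difference was -0.02, beside -0.19 over all rows, with 29 of 60 toward NAC_HFD (34.4% of all rows). With median-of-ratios scaling it was 0.06 with 34 of 60, beside -0.13 over all rows, and it was above 0 (0.01 to 0.08) without any single NFD or NAC_HFD library.

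ENSMUST00000129580 of Rps2 (chr17:24718121-24721927) stood at 56.2, 63.02, 45.8 and 64.2 TPM in NFD, 79.7, 61.8, 96.7 and 100.2 in HFD and 106, 211, 131 and 142 in NAC_HFD. The NAC_HFD libraries lay above all others, the second of them highest, and the difference from NFD was 1.33 on the log2 scale (SE 0.22, adjusted p = 0.051995). The Ces3a transcript stood at 85.8, 80.01, 46.9 and 48.4 TPM in NAC_HFD, all below NFD and partly within the HFD range. Its difference from NFD was -1.28 on the log2 scale (SE 0.22, adjusted p = 0.05902). ENSMUST00000226122 of Ndrg2 (chr14:51905271-51914004) stood at 205, 194, 259.8 and 98.3 TPM in NFD, 261, 271, 212 and 277 in HFD and 351, 429, 417 and 527 in NAC_HFD. Again all NAC_HFD libraries lay above all others, with NFD library 4 the lowest of the 12, and the difference from NFD was 1.26 on the log2 scale (SE 0.25, adjusted p = 0.0869). For the Acsl1 transcript the difference from NFD was 1.32 on the log2 scale (SE 0.28, adjusted p = 0.0917). Without NAC_HFD library 1, Rps2 and Ces3a passed the test (adjusted p = 0.0296 for each), and with only rows of 1 TPM or more tested, Rps2, Ces3a and Ndrg2 passed (adjusted p = 0.0301, 0.0333 and 0.0477). These were 2 of 21 alternatives for Rps2 and Ces3a and 1 of 21 for Ndrg2. Elsewhere the adjusted p in limma reached 0.142 for Rps2 (replicate number as a block) and 0.157 for Ces3a (without NAC_HFD library 4). For Ndrg2 it reached 0.196 (only the 2 groups in the fit).

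**Figure D4:**
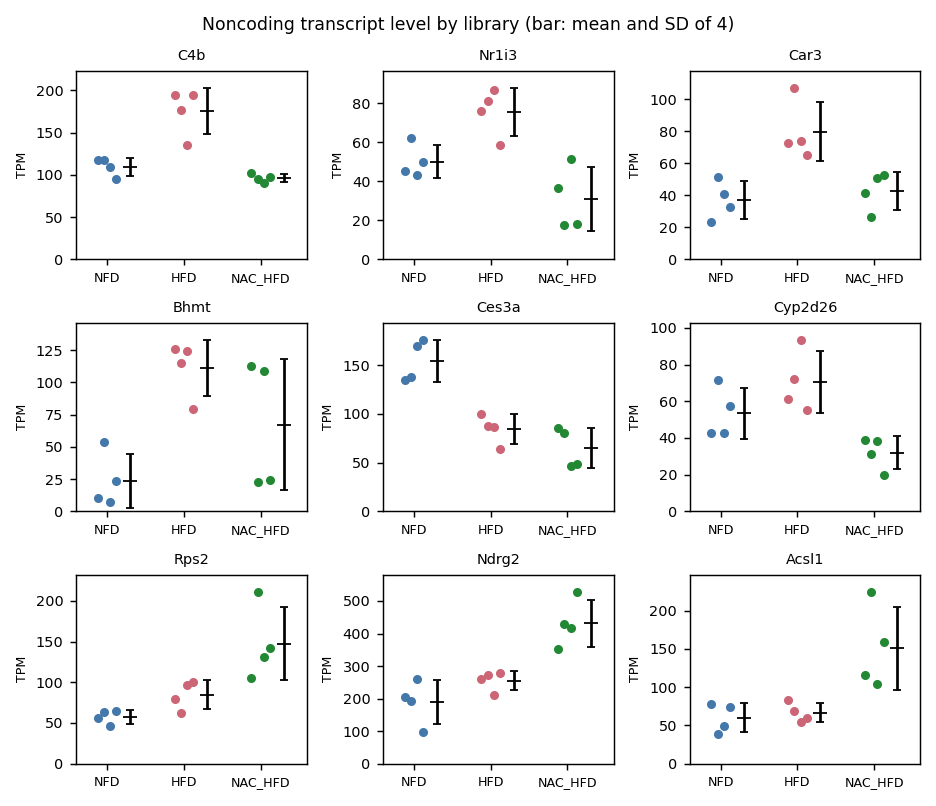
TPM of 9 noncoding transcripts (vertical) in each library of the 3 groups, points for libraries and bars for the mean and SD of 4. Ces3a is highest in NFD (134 to 176 TPM), C4b in HFD (136 to 195 TPM), and Rps2 in NAC_HFD (106 to 211 TPM).

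Whether a transcript moved with its gene or apart from it was read from its level against the rest of the gene. The transcript and the rest differed in the same direction in 42 of 60 members for HFD against NFD, in 42 for NAC_HFD against HFD and in 34 for NAC_HFD against NFD. The median size of the difference was 0.38, 0.41 and 0.42 on the log2 scale for the transcripts, and 0.27, 0.19 and 0.23 for the rest of the gene. The transcripts also varied more within groups (median coefficient of variation 24.3%, whole genes 11.8%). These counts and sizes were not computed over all noncoding transcripts, so they have no background. The ratio of transcript to rest of gene was then tested with limma over 15144 noncoding transcripts of listed genes. No member passed: 0 of 60 for HFD against NFD (0.0198% of all), 0 for NAC_HFD against HFD (0.0066%) and 0 for NAC_HFD against NFD (0.066%). At an unadjusted p under 0.05 the members numbered 7 (6.02% of all), 11 (7.53%) and 20 (10.5%), and the first of these counts was 4 without NFD library 1 or 4. Shares without overlap between groups numbered 5 (3.58%), 12 (4.68%) and 16 (6.1%).

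The Ces3a transcript had a different share beside a similar level of the rest of the gene, without passing the test. It held 11.3, 11.6, 16.7 and 14.3% of Ces3a in NFD, 9.33, 7.55, 6.33 and 5.48% in HFD and 6.47, 5.83, 4.36 and 4.105% in NAC_HFD, while the rest of the gene averaged 1001 ± 105, 1105 ± 129 and 1173 ± 117 TPM (SD, n = 4). The NFD shares lay above all others. The ratio differed by -1.02 on the log2 scale (SE 0.27, adjusted p = 0.671) for HFD against NFD and by -1.51 on the log2 scale (SE 0.27, adjusted p = 0.1005) for NAC_HFD against NFD. The Rps2 transcript held 12.3, 12.8, 10.96 and 20.3% in NFD, 18.2, 15.01, 23.96 and 23.3% in HFD and 24.1, 44.6, 29.8 and 29.1% in NAC_HFD, beside a rest of 364 ± 78.6, 336 ± 22.7 and 313 ± 37.2 TPM. All NAC_HFD shares were above the NFD and HFD shares, by a narrow margin for the lowest, and the ratio to NFD differed by 1.53 on the log2 scale (SE 0.33, adjusted p = 0.206).

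The Ndrg2 transcript held 25.98, 24.9, 30.3 and 16.8% in NFD, 26.1, 27.8, 23.6 and 28.9% in HFD and 36.3, 39.3, 34.3 and 41.3% in NAC_HFD. The NAC_HFD shares were the 4 highest, and the ratio to NFD differed by 0.93 on the log2 scale (SE 0.24, adjusted p = 0.239). The C4b shares were 27.6, 27.6, 27.3 and 27.7% in NFD, 29.8, 31.4, 29.1 and 27.5% in HFD and 21.8, 22.7, 21.1 and 20.5% in NAC_HFD. They were nearly equal among NFD libraries and lowest in all 4 NAC_HFD libraries, and the ratio to HFD differed by -0.60 on the log2 scale (SE 0.15, adjusted p = 0.393). Acsl1 and Cyp2d26 had shares without overlap between HFD and NAC_HFD, in opposite directions. The Acsl1 transcript held 8.74, 8.86, 5.37 and 6.88% in HFD and 11.04, 21.4, 13.3 and 17.04% in NAC_HFD, a ratio difference of 1.19 on the log2 scale (SE 0.30, adjusted p = 0.393). The Cyp2d26 transcript held 8.81, 11.6, 14.3 and 9.13% in HFD and 6.41, 5.83, 5.54 and 3.096% in NAC_HFD, a ratio difference of -1.18 on the log2 scale (SE 0.30, adjusted p = 0.393), and against NFD the difference was -1.07 on the log2 scale (SE 0.30, adjusted p = 0.272).

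Other shares with small unadjusted p did not pass either. ENSMUST00000161799 of alcohol dehydrogenase Adh1 held 5.48, 5.298, 7.98 and 8.98% in NFD and 3.697, 4.895, 3.73 and 2.49% in HFD, without overlap, and ENSMUST00000151269 of Pck1 held 22.4, 16.3, 19.4 and 28.6% and 17.4, 14.7, 13.8 and 5.44%, with overlap. The Bhmt transcript held 2.33, 10.8, 0.5296 and 3.99% in NFD and 11.4, 16.3, 14.8 and 8.53% in HFD, and the HFD library with the lowest share lay below the NFD library with the highest. The adjusted p for HFD against NFD was 0.824 for each of these 3. The Mup10 transcript held 92.2, 93.9, 93.2 and 92.01% in HFD and 87.8, 81.05, 90.01 and 81.3% in NAC_HFD, where all NAC_HFD shares were lower, with a ratio difference of -1.14 on the log2 scale (SE 0.31, adjusted p = 0.444).

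**Figure D5:**
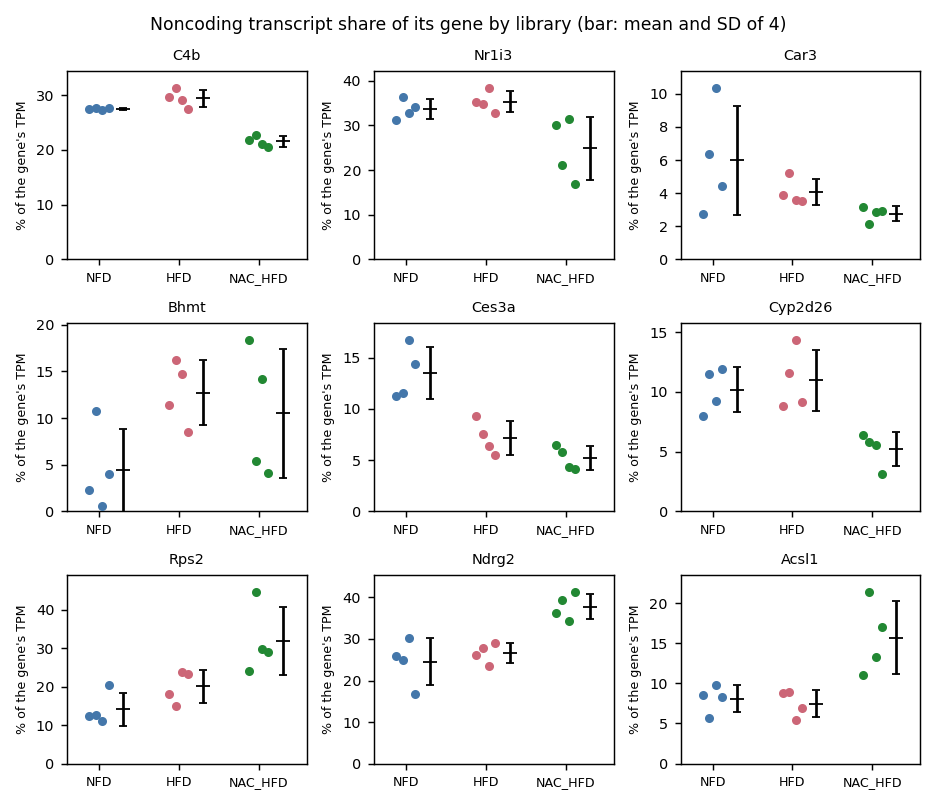
Share of the gene's TPM in percent held by the noncoding transcript (vertical) in each library of the 3 groups, points for libraries and bars for the mean and SD of 4. Ces3a shares run from 11.3% to 16.7% in NFD and from 4.10% to 6.47% in NAC_HFD, and C4b shares are lowest in NAC_HFD (20.5% to 22.7%).

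At the level of whole genes, where the noncoding rows and the mRNA are added together, some of the 53 genes passed. With limma over 11376 genes, 2 of 53 were called for HFD against NFD (2.78% of all genes), 0 for NAC_HFD against HFD (0%) and 7 for NAC_HFD against NFD (5.28%). At an unadjusted p under 0.05 there were 24, 18 and 18 of 53, beside 19.1%, 16.4% and 22.6% of all genes, and the first of these counts was 13 without HFD library 1. Other genes of a similar level were not counted apart. The calls over all genes depended on single libraries. For HFD against NFD the 316 calls became 142 without NFD library 1 and 90, 129 and 97 without HFD library 1, 2 or 4. For NAC_HFD against HFD the 0 became 10 without NFD library 3, 23 without HFD library 3, and 64, 2 and 3 without NAC_HFD library 1, 2 or 3. For NAC_HFD against NFD the 601 became 252 and 295 without NFD library 1 or 3, and 243 and 211 without NAC_HFD library 3 or 4. Car3 rose from 696 ± 209.6 TPM in NFD to 1962 ± 111 in HFD (SD, n = 4), a difference of 1.56 on the log2 scale (SE 0.21, adjusted p = 0.00316), and was 1536 ± 289.6 in NAC_HFD, 1.18 on the log2 scale (SE 0.21, adjusted p = 0.0102) above NFD. Of this gene the noncoding transcript was only 4.26%, so the call rests on the mRNA rows. C4b rose from 398 ± 39.1 to 598 ± 106 TPM, 0.58 on the log2 scale (SE 0.13, adjusted p = 0.0295), with summed Kupffer cell markers at 64.6 to 123 TPM in NFD and 86.6 to 224 in HFD, whose part was not tested.

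In NAC_HFD against NFD, besides Car3, 5 genes rose and 1 fell. Cyp2e1, which oxidizes ethanol and other small molecules, rose from 6128 ± 658 to 9323 ± 502 TPM, 0.61 on the log2 scale (SE 0.11, adjusted p = 0.00816). Ndrg2 rose from 752 ± 117 to 1138 ± 138 TPM, 0.60 on the log2 scale (SE 0.13, adjusted p = 0.0183), and its noncoding transcript went from 189 ± 67.1 to 431 ± 72.7 TPM of that. The isomerase of unsaturated fatty acids Eci2, the acetaldehyde-oxidizing Aldh2 and the ion pump regulator Fxyd1 rose by 0.44, 0.35 and 0.37 on the log2 scale (adjusted p = 0.0297, 0.0424 and 0.0468). The inducible heat shock protein gene Hsp90aa1 fell from 366 ± 96.5 to 199 ± 66.8 TPM, -0.91 on the log2 scale (SE 0.22, adjusted p = 0.0331). Nr1i3 fell short of the threshold in NAC_HFD against HFD (-0.87 on the log2 scale (SE 0.17, adjusted p = 0.0522)) and passed without NAC_HFD library 3 (-1.04, adjusted p = 0.0362). Of these calls, those of Car3 and Cyp2e1 held in all 21 alternatives tried. Leaving out a single library ended the C4b call (NFD 1, 3 or 4, or HFD 1, 2 or 4; adjusted p = 0.0508 to 0.109), the Ndrg2 call (NAC_HFD 3 or 4; 0.0534 to 0.0583), the Eci2 call (NFD 1, 2 or 3, or NAC_HFD 2, 3 or 4; 0.0503 to 0.0830) and the Hsp90aa1 call (NFD 1, 2 or 3, HFD 1, or NAC_HFD 3 or 4; 0.0511 to 0.0932). It also ended the Aldh2 call (NFD 1 or 3, any HFD library, or NAC_HFD 2, 3 or 4; adjusted p = 0.0541 to 0.102) and the Fxyd1 call (any NFD library, HFD 1, 2 or 3, or NAC_HFD 2, 3 or 4; 0.0583 to 0.128). With median-of-ratios scaling the split of calls over all genes in NAC_HFD against NFD, 200 higher and 401 lower, became 371 and 250, with 10 member genes higher and 1 lower, and that for HFD against NFD went from 249 and 67 to 195 and 94 when the most abundant lncRNA was taken out.

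The authors' deposited tables of lncRNA comparisons, which list rows with an unadjusted p under 0.05 and a fold of at least 2, hold 9 entries for members. For HFD against NFD, the authors' deposited table of 789 rows lists 3 members: Ahsg ENSMUST00000232377 with a log2 ratio of -1.03 (adjusted p = 0.0330), Car3 with 1.11 (adjusted p = 0.00532) and Bhmt with 2.23 (adjusted p = 0.0606). For NAC_HFD against HFD, the authors' deposited table of 1075 rows lists 6. Those were Cyp2c70 with 2.36 (adjusted p = 4.56e-04), Acsl1 with 1.29 (adjusted p = 0.00134), Nr1i3 with -1.19 (adjusted p = 0.0161) and Cyp2d26 with -1.01 (adjusted p = 0.0190), and, not under an adjusted p of 0.05, Trf ENSMUST00000112503 with -1.01 (adjusted p = 0.286) and Ces3b ENSMUST00000173838 with 1.79 (adjusted p = 0.390). The authors' deposited tables thus give smaller adjusted p-values for Ahsg, Car3, Bhmt, Acsl1, Cyp2c70, Nr1i3 and Cyp2d26 than the limma fit did, with the same directions. In the limma fit of HFD against NFD the smallest adjusted p of any member was 0.199. The test behind them was not given in the sources used here.

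Genes that act in splicing and in RNA surveillance, the machinery that makes and removes such transcripts, were read from the gene table. Of 142 tested, 1 was called for HFD against NFD (0.704%, beside 2.78% of all genes): Snrpb, a core protein of the splicing particles, fell from 24.3 ± 1.72 to 18.6 ± 0.724 TPM (SD, n = 4), -0.37 on the log2 scale (adjusted p = 0.0291). The median over the list was -0.12, beside 0.01 over all genes, and 31 of 142 were toward HFD, beside 52.7% of all genes. For NAC_HFD against HFD 0 were called (limma, 11 at an unadjusted p under 0.05, beside 16.4% of all genes), and the smallest p belonged to Snrpa1 (-0.44, adjusted p = 0.104), Mbnl1 (0.36, adjusted p = 0.104) and Rbm43 (-0.41, adjusted p = 0.149). Here the median over the list was 0.006, beside -0.08 over all genes, and 74 of 142 were toward NAC_HFD, beside 31.5% of all genes. For NAC_HFD against NFD, 401 of the 601 genes called in the whole table fell. With median-of-ratios scaling 371 rose and 250 fell, and single genes of the list were not recomputed there. The median over the list was -0.12, beside -0.07 over all genes, and 37 of 142 were toward NAC_HFD, beside 37.5% of all genes. In the list 6 genes fell and 0 rose, 4.23% of the list beside 5.28% of all genes. These were the helicase Ddx17 (-0.48, adjusted p = 0.0138), the splicing regulators Hnrnph1 (-0.61, adjusted p = 0.0231) and Rbm4 (-0.36, adjusted p = 0.0258), the splicing particle proteins Snrpa1 (-0.52, adjusted p = 0.0242) and Snrpb (-0.35, adjusted p = 0.0267), and Smg5 of nonsense-mediated decay (-0.45, adjusted p = 0.0299).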

How the data were processed

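Mouse liver RNA was measured by sequencing in 12 libraries, 4 per diet group, with groups and replicate numbers from the sample labels. Per the submitters' processing notes, fastp, HISAT and RSEM were used with build GRCm38; their versions, settings and roles, the strandedness and the transcript annotation were not given in the sources used here. Deposited gene, mRNA and lncRNA tables hold TPM made by the authors. TPM keeps no depth, so the depth of each library is unknown and no counting interval can be given. Adding the mRNA and lncRNA rows of a gene gave its value in the gene table within 0.1 TPM or 1 percent for all 19252 genes. Per the file headers, the authors' comparison tables give each row a fold change as a ratio, its log2, a p-value and an adjusted p-value, and they served only where named. The comparison tables for mRNA and the lncRNA named in the series title are not analysed here.

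Transcripts were tested on log2(TPM + 0.1) where at least 4 libraries had 0.1 TPM, which all 60 members did. Whole genes were tested on log2(TPM + 1) with a floor of 1 TPM in 4 libraries, and shares as log2 of transcript TPM + 0.1 over the rest of the gene + 0.1. Pseudocounts make the differences of low rows smaller than the ratio of TPM. Each fit used 3 group means over all 12 libraries (limma 3.58.1 in R 4.3.3, lmFit and eBayes with trend and robust), two-sided, with Benjamini-Hochberg adjustment over all rows of the fit and a threshold of 0.05. The procedure was tested on simulated data. The 3 comparisons share groups, so their values are not independent.

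The members, the 11 functional lists, the marker lists and the motifs were chosen with earlier results of these data known. Members were named by a rule: the 10 highest by level, the 4 smallest p per comparison where fewer than 3 passed (for levels and for shares), the 6 highest and 6 lowest mean shares, up to 3 per list by level, genes with several members, the rows next to the threshold, and members in the authors' tables. Called member genes, members varying most or least, and genes of the share plot were named after their values were seen. Positions and promoters come from RefSeq (GRCm38.p6) by gene symbol; all 53 genes matched and 39 had a promoter, with no entry for Ces3a, Ifi27, Trf, Gls2, Hsp90aa1, Car3, Fn1, C4b, Ctsb, Manf, Xylb, Aldh2, Rps20 and Ces1d. Alternatives covered pseudocount, filter, scaling, limma settings, the groups in the fit, a replicate block and leaving out each library.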

Additional observations from a re-analysis of the deposited data

Results flagged for a closer look

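Each group of 4 libraries was checked for a library whose gap to the nearest other divided by the group's range exceeded Dixon's 95% critical value, for the level and the share of every member and for the summed levels. Of 363 groups, 20 held such a library, and chance alone gives about 1 in 20 groups. Values below are in TPM for levels and in percent of the gene's TPM for shares, with the range of the other 3 libraries of the group.

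NFD library 4, which also had the highest lncRNA total, was apart in 5 groups. Its level was 136 (others 195 to 200.1) for Itm2b, 84.1 (others 158 to 172) for Rps16 ENSMUST00000155805, 169 (others 70.3 to 86.5) for the medium-chain acyl-CoA dehydrogenase Acadm and 43.9 (others 50.8 to 51.2) for Prelid1, and its share was 37.6 (others 27.04 to 28.8) for Gstp1. Acadm was high in that library and Itm2b, Rps16 and Prelid1 were low. In NFD library 3 the Hsp90aa1 level was 121 (others 60.8 to 70.4), and in NFD library 2 the Ghitm share was 57.6 (others 54.2 to 54.7).

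Among HFD libraries, the first had a Ces3b level of 64.5 (others 16.04 to 18.9) and a Ces3b share of 24.3 (others 9.396 to 11.5), so level and share were high together. The second had a share of 40.7 (others 32.1 to 33.6) for Fxyd1. The third had a level of 114 (others 58.8 to 67.1) and a share of 10.9 (others 5.75 to 6.61) for vitronectin, Vtn, a level of 86.3 (others 98.8 to 99.8) for Ctsb and a share of 54.7 (others 57.7 to 58.1) for Ghitm. The fourth had a level of 114 (others 137 to 142) for Atp5j, a level of 28.2 (others 132 to 147) for Trf ENSMUST00000112503 and a share of 15.5 (others 13.6 to 13.7) for fibronectin, Fn1.

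NAC_HFD library 3 was apart in 3 groups. Its level was 238 (others 80.9 to 98.9) for Abcc2 ENSMUST00000143553, and its shares were 36.2 (others 40.3 to 40.8) for ketohexokinase, Khk, and 23.5 (others 27.997 to 28.5) for Manf, a secreted stress protein of the endoplasmic reticulum.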

How the results depend on the processing

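Among the 60 members, calls at the transcript level stayed at 0 in the comparisons of HFD with NFD and of NAC_HFD with HFD under all 21 alternatives. For NAC_HFD against NFD they became 3 with a filter at 1 TPM and ranged from 0 to 2 when a library was left out. Share calls stayed at 0 except for 1 (Ces3a, adjusted p = 0.0222) with a pseudocount of 1 in NAC_HFD against NFD. None of the 693 alternative values for the 33 named differences changed sign; 6 crossed to the called side and 56, all for whole genes, crossed to the other.

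Calls over all lncRNA rows moved more, and the cause was not tested. For HFD against NFD the count of 7 became 2 with the 1 TPM filter and ranged from 2 to 11 when a library was left out (11 without NAC_HFD 2, 2 without HFD 2). For NAC_HFD against HFD the count of 8 became 5 without a filter, 3 with the 1 TPM filter and 4 with only the 2 groups in the fit, and ranged from 1 (without HFD 2 or 3) to 37 (without NAC_HFD 1). For NAC_HFD against NFD the count of 25 became 16 with a pseudocount of 1, 3 without a filter, 79 with the 1 TPM filter, 12 without trend and robust and 13 with only 2 groups, and ranged from 2 (without NFD 3) to 69 (without NAC_HFD 1).

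Member genes called for HFD against NFD went from 2 to 1 without a filter and ranged from 1 to 3 over the libraries left out. Those for NAC_HFD against HFD ranged from 0 to 1. Those for NAC_HFD against NFD went from 7 to 3 without a filter, 11 with median-of-ratios scaling and 2 with only 2 groups, and ranged from 2 to 9. Over all genes, the 316 calls for HFD against NFD became 168 without a filter, and the 601 for NAC_HFD against NFD became 289 without a filter and 188 with only 2 groups. Members at an unadjusted p under 0.05 numbered 18, 18 and 24 in the 3 transcript comparisons and 8 to 20, 13 to 21 and 16 to 26 over all alternatives. With a mean level of 25 or 100 TPM as threshold the set had 131 or 24 members.

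Equal replicate numbers did not pair the libraries: the 12 correlations of deviations between libraries of the same number ran from -0.0444 to 0.0252, and 0 of 12 libraries correlated best with their own number in both other groups. With the replicate number as a block, lncRNA rows called were 1, 1 and 1 for the 3 comparisons in the order above, members 0, 0 and 0, and member genes 1, 0 and 4. The 1 was Car3, so that the C4b call was lost. The 4 were Car3, Cyp2e1, Ndrg2 and Rps20, and the calls of Eci2, Hsp90aa1, Aldh2 and Fxyd1 were lost. The Rps20 difference was -0.50 on the log2 scale (adjusted p = 0.0425 in limma with the block). Rps20 was not called in the fit used for the results. Without a block it was called when NFD library 4 was left out (-0.67, adjusted p = 0.00818 in limma). It was also called when the most abundant lncRNA was taken out (-0.52, adjusted p = 0.0354). The calls of single splicing genes were not recomputed. Unknown depth limits the statements on low and widely spread transcripts.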

Other observations

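Some members split within a group rather than between groups. The rest of Mup14, meaning its rows without ENSMUST00000136039, stood at 7981, 7067, 6416 and 6175 TPM in NFD, 2197, 2448, 8455 and 10228 in HFD and 8578, 9255, 1915 and 2514 in NAC_HFD. In both high fat groups 2 libraries were several times lower than the other 2, while NFD was uniform. The noncoding Mup14 transcript was lower in the same libraries, over a smaller range: it stood at 288, 344, 464 and 611 TPM in HFD and 406, 475, 201 and 223 in NAC_HFD. Its share of the gene was accordingly 11.6, 12.3, 5.201 and 5.64% in HFD and 4.52, 4.88, 9.49 and 8.14% in NAC_HFD. Mup genes are near-identical copies, and how reads were divided among them was not given in the sources used here. For Bhmt, the NAC_HFD libraries of the noncoding transcript split as well (libraries 1 and 3 against 2 and 4), though not along the libraries that split for Mup14.

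Other members had groups apart without passing the test. ENSMUST00000139180 of Gcdh, which breaks down lysine, stood at 35.2, 40.1, 38.2 and 33.7 TPM in NFD, 44.6, 33.9, 49.5 and 50.1 in HFD and 51.1, 92.5, 53.7 and 86.3 in NAC_HFD. All NAC_HFD libraries were above the others, by 0.90 on the log2 scale (SE 0.21, adjusted p = 0.111) against NFD in limma. The Ahsg transcript stood at 96.1, 95.8, 77.4 and 137 TPM in NFD, 50.03, 59.2, 64.99 and 24.9 in HFD and 44.6, 66.2, 68.99 and 33.99 in NAC_HFD, all NFD libraries above all others, while the rest of the gene ran from 3493 to 4989 TPM. The Gstp1 transcript stood at 764, 695, 830.4 and 873 TPM in NFD and 192, 408, 653 and 595 in HFD, without overlap, and at 728, 1405, 699 and 416 in NAC_HFD, where its share was 36.03, 47.5, 42.3 and 42.2% beside 26.996, 34.6, 32.8 and 31.9% in HFD.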
